A study of Mus musculus with 6 samples.

Results

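The ion and metal solute carriers are the members of 14 families of the solute carrier (Slc) superfamily that move bicarbonate, sodium, protons, chloride, potassium, calcium, sulfate, phosphate, iron, copper, zinc or magnesium across membranes. They were chosen by a rule on the gene symbol alone, which used no measured value, although earlier results of these data were known. The families are Slc4, Slc8, Slc9, Slc11, Slc12, Slc20, Slc24, Slc26, Slc30, Slc31, Slc34, Slc39, Slc40 and Slc41. The symbols were carried by 168 of the 45281 probes on the array and named 80 of its 19057 genes. Of these 80 genes, 3 have symbols that begin like a carrier's but encode partner proteins: Slc9a3r1, Slc9a3r2 and Slc4a1ap.

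RNA was taken from the sciatic nerve of mice at postnatal day 14 and measured on Illumina Mouse WG-6 bead arrays, 1 array per sample. The mutant group held 3 arrays from mice with the genotype P0 Cre Dicer, to which the labels add "F or N" without explaining it, and the control group held 3 arrays from littermates. The P0 promoter drives the Cre recombinase in Schwann cells, the glia of peripheral nerve, and Dicer cuts precursors into mature microRNAs. The labels list females and males for each sample and do not say whether nerves were pooled, so the p-values describe how these 6 arrays vary, and part of that may be technical.

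The array values are on a log2-like scale from 7.96 to 15.91, on which empty probes lie near 8, and each change is given as mutant minus control on that scale. A gene is represented by its brightest tested probe, and it was called where the adjusted p of limma, a linear model with a pooled variance, was under 0.05. The targeted gene gave a mixed reading: the brightest Dicer1 probe differed by -0.02 (adjusted p = 0.832), and a dimmer probe fell by 0.20 (SE 0.063, adjusted p = 0.0458). The labels do not place either probe in or outside the deleted part. Sox10, a transcription factor of Schwann cells, had a mean of 13.94 in the controls and of 13.98 in the mutants. S100b, of the same Schwann lineage list, fell from 10.10 to 8.91 (difference -1.19, adjusted p = 0.00236), Erbb3 was not called, and the list mean was 10.11 to 10.20 on control arrays and 9.79 to 9.90 on mutant arrays. All 4 measured markers of myelinating Schwann cells fell, and their mean level was 14.67 to 14.75 on control arrays and 12.55 to 12.76 on mutant arrays. The control arrays correlated with each other at 0.992 to 0.995 across probes and the mutant arrays at 0.973 to 0.993, and mutant replicate 1 stood apart from the other mutants (0.982 and 0.973). Each sample is nerve tissue of mixed cells, so fewer cells of a type and less RNA per cell cannot be told apart.

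These carriers set the ionic conditions in which cells work. Sodium-proton exchangers and bicarbonate carriers control pH, cation-chloride cotransporters set the chloride gradient and cell volume, and sodium-calcium exchangers remove calcium from the cell. Metal carriers come in opposing families: Slc30 proteins (ZnT) move zinc out of the cytosol, Slc39 proteins (ZIP) move it in, Slc11a2 imports iron and Slc40a1 (ferroportin) exports it. In peripheral nerve, Schwann cells help to take up the potassium that firing axons release.

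Of the 80 genes, 47 had a probe bright enough to be tested. Among these 47, 10 rose and 11 fell in the mutants. The changes were led by a rise of Slc24a2 (2.38) and by falls of the sodium-proton exchanger Slc9a3 (-1.80), its partner Slc9a3r2 (-1.61) and the chloride importer Slc12a2 (-0.98). The 21 called carriers are 44.7% of those tested, where 39.6% of all 10273 tested genes were called. Higher calls made up 21.3% of the carriers against 22% of all genes, and lower calls 23.4% against 17.6%. The groups of arrays did not overlap for 24 carriers (51.1%), against 55.2% of all genes. The 24 include Slc39a4, Slc39a5, Slc39a8 and Slc41a1, which were tested only through their control arrays, where they were higher. A call with a difference of at least 1 was made for 3 carriers (6.38%), against 5.57% of all genes. At the level of probes, 14 of 61 rose and 12 fell, 42.6% in all against 35.8% of all tested probes. The median difference of the 47 genes was 0.01, as it was for all tested genes, and the median size of the difference was 0.197 against 0.201. These shares lie near those of all genes, and the sections that follow describe single members.

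Without the 3 partner genes, 10 of 44 tested genes rose and 10 fell. Counts changed when single arrays were left out. Leaving out mutant replicate 2, control replicate 1 or control replicate 2 left 6 genes higher in each case. The lower genes numbered 5 without mutant replicate 2, 6 without control replicate 1, and 7 without control replicate 2 or control replicate 3. Without mutant replicate 1, the array that stood apart, 10 rose and 10 fell. How many of all genes were called in these smaller comparisons was not counted, so the drops are no result about the carriers. Of the 21 calls, 11 held in every alternative in which the gene was tested: Slc24a2, Slc24a3, Slc9a3, Slc9a3r2, Slc9a9, Slc12a2, Slc12a7, Slc4a8, Slc20a1, Slc39a6 and Slc39a4. Of the 11 lower genes, Slc39a4 and Slc39a8 were bright enough to be tested only through their control arrays, and their calls are no support for the count. The other 10 of the 21 lost their call in at least 1 alternative, and each is given below with those alternatives. A comparison with an array left out has less power, so a lost call alone does not show that a gene depended on that array. In such runs the difference of a gene that lost its call shrank in some cases and grew in others.

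**Figure D1:**
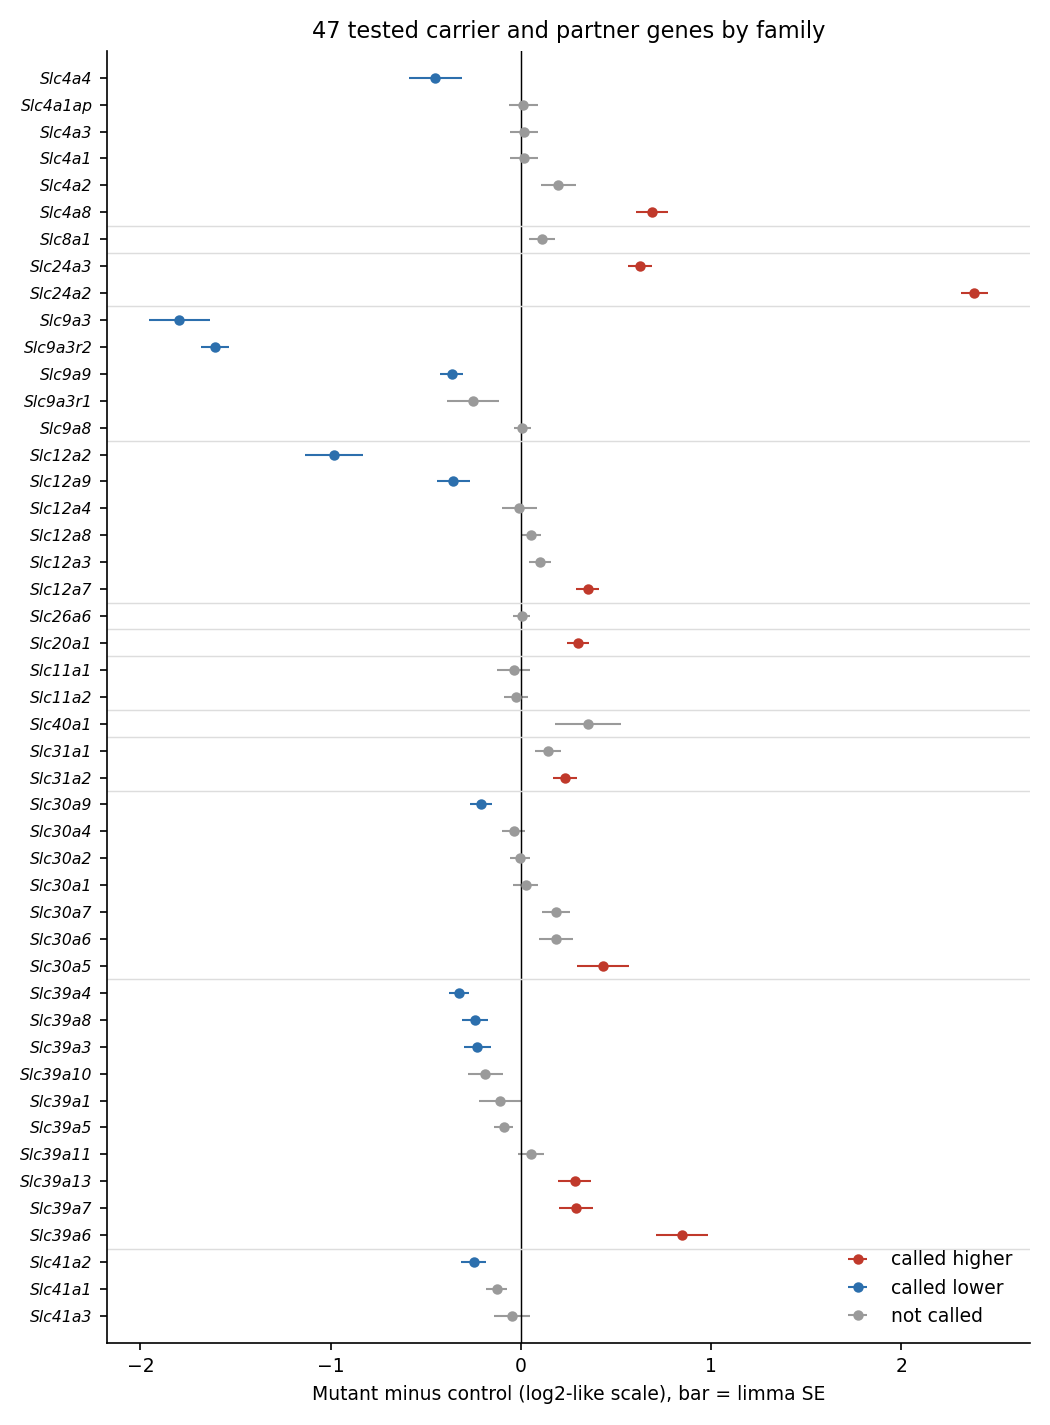
Difference (mutant minus control, log2-like units) of the 47 tested genes, grouped by Slc family, with points for the limma estimate and bars for its SE; colour marks genes that rose, fell or were not called. Slc24a2 lies farthest to the right at 2.38 and Slc9a3 farthest to the left at -1.80, and 14 of the 21 called genes lie within 0.5 of 0.

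The remaining 33 genes had no tested probe, and with the dim second probes of tested genes they made up 107 untested member probes. Their mean levels ran from 8.05 to 8.33, and the largest difference among them was 0.167 in size. They include Slc12a1 and Slc12a5, the kidney and neuronal chloride cotransporters, all 3 genes of Slc34, the phosphate carriers of kidney, gut and lung, and 9 of the 10 Slc26 anion exchangers. Also untested were Slc4a9, Slc4a10, Slc4a11, Slc8a2, Slc8a3, Slc24a1, Slc24a4, Slc24a5, Slc9a2, Slc9a4, Slc9a5, Slc9a7, Slc20a2, Slc30a3, Slc30a8, Slc30a10, Slc39a9, Slc39a12 and Slc39a14. At this brightness a probe near the bottom of the scale does not show that its gene is silent.

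**Figure D2:**
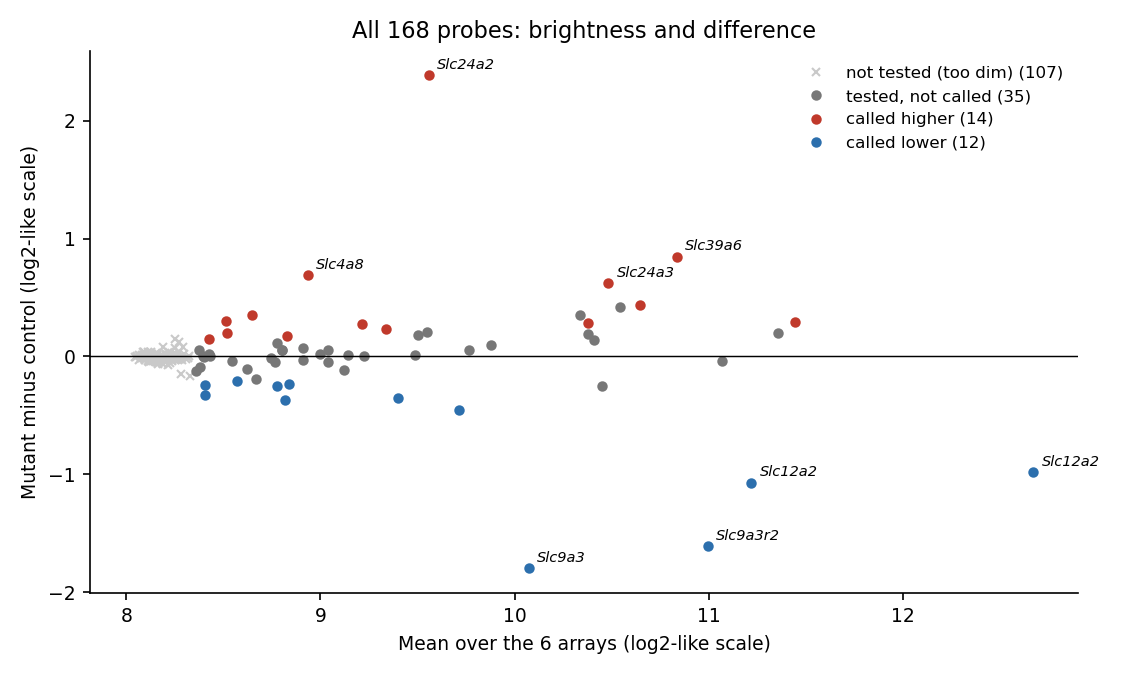
Each of the 168 member probes by its mean level over the 6 arrays (x axis, log2-like units) and its difference (y axis, mutant minus control). The 107 untested probes cluster at means of 8.05 to 8.33 with differences of at most 0.167 in size, while the 14 higher and 12 lower probes spread over the brighter range.

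Of 5 tested genes of the Slc9 group, the sodium-proton exchangers and their partners, 3 fell and none rose, with a median of -0.36. Over all genes, 17.6% fell. Of the exchangers themselves, Slc9a3 and Slc9a9 fell and Slc9a8 was not called, and of the partners Slc9a3r2 fell and Slc9a3r1 was not called. Slc9a3 encodes the exchanger best known from the brush border of kidney and gut, where it brings in sodium in trade for protons. Its control arrays read 10.64, 11.14 and 11.13 (mean 10.97 ± 0.285 SD, n = 3), and its mutant arrays read 8.99, 9.17 and 9.37 (9.18 ± 0.19). The groups were far apart, and the fall of 1.80 (SE 0.16, adjusted p = 2.85e-04) would be 3.47-fold if the scale is plain log2. A second Slc9a3 probe was untested at a mean of 8.13 and differed by -0.01.

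Slc9a3r2 encodes a scaffold protein with PDZ domains that tethers Slc9a3 and other membrane proteins. Its control arrays read 11.86, 11.73 and 11.80 (11.80 ± 0.0665), and its mutant arrays read 10.10, 10.16 and 10.32 (10.19 ± 0.112). Every mutant array was below every control array, and the gene fell by 1.61 (SE 0.0733, adjusted p = 1.81e-05). The related scaffold Slc9a3r1 read 10.56, 10.52 and 10.65 in controls and 10.03, 10.36 and 10.58 in mutants. These groups overlapped and the difference of -0.25 was not called (adjusted p = 0.193), although without mutant replicate 3 it was -0.38 and called (adjusted p = 0.0427). Slc9a9, an exchanger of endosomes, fell by 0.36 (SE 0.0616, adjusted p = 0.00453), from 9.08, 8.99 and 8.93 in controls to 8.70, 8.59 and 8.61 in mutants. Slc9a8, the exchanger of the Golgi, differed by 0.01 (adjusted p = 0.914).

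Of the calcium exchangers, both tested genes of Slc24, which remove calcium in trade for sodium with potassium carried along, rose, and the single tested gene of Slc8 was not called. Over all genes, 22% rose. Slc24a2, best known from cone photoreceptors and brain neurons, read 8.38, 8.33 and 8.38 on the control arrays (8.37 ± 0.0293), near the bottom of the scale, and 10.85, 10.79 and 10.62 on the mutant arrays (10.75 ± 0.118). The rise of 2.38 (SE 0.0704, adjusted p = 4.64e-06) would be 5.22-fold if the scale is plain log2, and a control level near the bottom makes the measured difference a poor guide to the fold. The control mean lay just above 8.34, the lowest mean that the brightness filter kept. Its 4 further probes were untested, with means of 8.08 to 8.17 and differences from -0.01 to 0.02, so the rise rests on 1 probe of 5.

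Slc24a3, a broadly expressed exchanger of the same family, was already well above the bottom of the scale in controls, at 10.11, 10.27 and 10.13 (10.17 ± 0.0888). Its mutant arrays read 10.84, 10.76 and 10.78 (10.80 ± 0.0433). The groups did not overlap, and the rise was 0.62 (SE 0.0626, adjusted p = 4.86e-04). Slc8a1, the sodium-calcium exchanger of heart and many other tissues, read 8.70, 8.70 and 8.76 in controls and 8.94, 8.84 and 8.72 in mutants. Its groups overlapped and its difference of 0.11 was not called (SE 0.0668, adjusted p = 0.246). Because Slc24a2 is a gene of neurons, neuronal markers were read beside it: none of 5 (Rbfox3, Snap25, Tubb3, Nefl and Syt1) was bright enough to be tested, and their mean level was 8.18 to 8.20 on control arrays and 8.18 to 8.22 on mutant arrays. Slc24a5, the family member of pigment cells, was untested with a mean of 8.26 and a difference of -0.02. Of 5 melanocyte markers, 2 were tested: Dct rose by 1.51 and Pmel fell by 0.74. Tyr, Mlana and Tyrp1 were untested, and the brightest Tyrp1 probe was at 8.48 in controls and 8.11 in mutants (difference -0.37), with all mutants below the controls. The part of these cells in the Slc24 result was not tested.

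**Figure D3:**
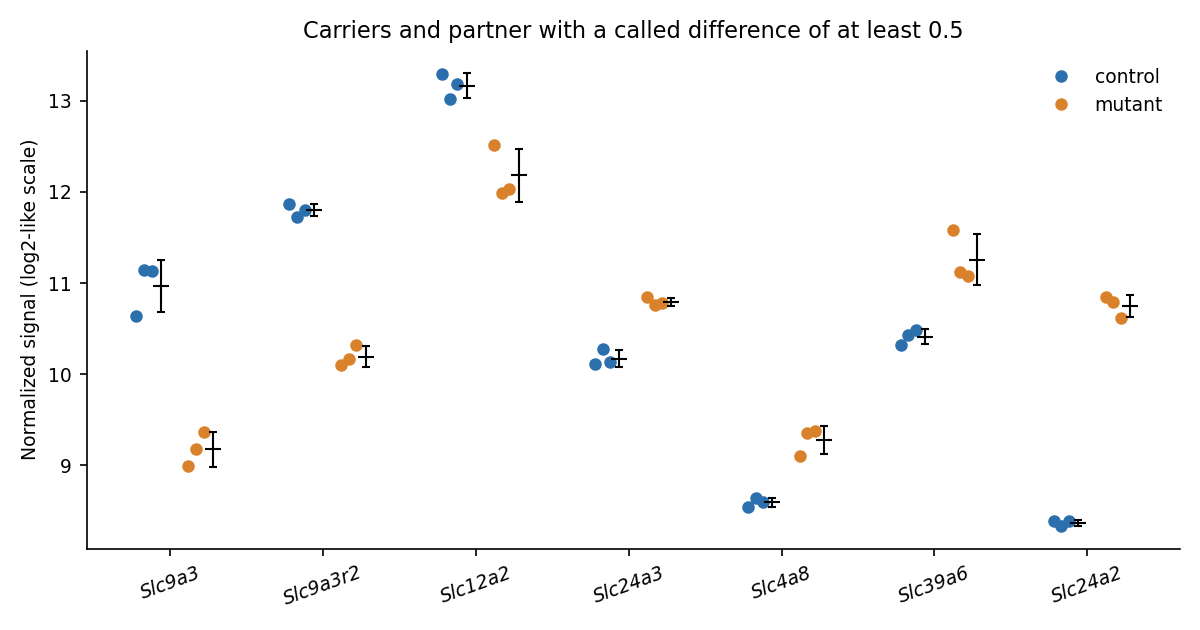
Level on each array (y axis, log2-like units) of the 7 carrier genes called with a difference of at least 0.5; points are arrays, and the bar and whisker give the group mean ± SD (n = 3). The groups do not overlap for any of the 7: the mutants are below for Slc9a3, Slc9a3r2 and Slc12a2, and above for Slc24a2, Slc24a3, Slc39a6 and Slc4a8.

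The upstream sequences of the genes with the strongest change in each direction are shown because they let the members be set beside Egr2, the zinc finger transcription factor of myelinating Schwann cells, which itself fell from 13.06 to 10.60 (difference -2.45, SE 0.0947, adjusted p = 1.00e-05). Slc24a3 (0.62) is shown as the second exchanger of its family, although Slc39a6 (0.85) and Slc4a8 (0.69) rose more. The promoters of Slc39a6 and Slc4a8 are not shown. Each sequence is the 250 bases before the annotated start from RefSeq, build GRCm38.p6, written 5′ to 3′ on the gene's own strand, and the first start of Slc9a3r2, Slc24a2 and Slc24a3 was taken where RefSeq gives another. Capitals mark matches on either strand to the Egr site GCGNGGGCG or to the cores TGCACNC and TGCGCNC of the metal response element, the site read by the zinc sensor Mtf1. The regions are chr13:74121163-74121412 (plus strand) for Slc9a3, chr17:24650306-24650555 (minus strand) for Slc9a3r2, chr4:87230541-87230790 (minus strand) for Slc24a2 and chr2:145167525-145167774 (plus strand) for Slc24a3.
Slc9a3: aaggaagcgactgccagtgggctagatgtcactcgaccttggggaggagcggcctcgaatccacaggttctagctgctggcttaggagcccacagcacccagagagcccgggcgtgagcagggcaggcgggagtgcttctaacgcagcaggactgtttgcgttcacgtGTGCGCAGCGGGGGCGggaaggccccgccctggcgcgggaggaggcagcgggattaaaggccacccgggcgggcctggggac
Slc9a3r2: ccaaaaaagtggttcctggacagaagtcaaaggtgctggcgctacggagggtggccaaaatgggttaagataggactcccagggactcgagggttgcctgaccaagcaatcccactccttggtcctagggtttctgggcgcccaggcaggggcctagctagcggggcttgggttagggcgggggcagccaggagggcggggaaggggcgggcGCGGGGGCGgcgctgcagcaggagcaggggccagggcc
Slc24a2: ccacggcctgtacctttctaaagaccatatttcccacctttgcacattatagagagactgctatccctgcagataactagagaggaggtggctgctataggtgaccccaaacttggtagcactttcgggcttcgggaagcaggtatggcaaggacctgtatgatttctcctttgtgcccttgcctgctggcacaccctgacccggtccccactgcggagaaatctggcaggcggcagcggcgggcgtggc
Slc24a3: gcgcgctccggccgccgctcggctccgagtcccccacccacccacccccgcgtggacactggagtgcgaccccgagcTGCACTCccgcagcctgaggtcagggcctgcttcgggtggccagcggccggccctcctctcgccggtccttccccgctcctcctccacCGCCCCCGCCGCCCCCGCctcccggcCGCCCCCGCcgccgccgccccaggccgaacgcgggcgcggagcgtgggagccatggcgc

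Slc9a3 holds 1 Egr match that starts 75 bases before the gene start, directly after a metal core at -82. Slc9a3r2 holds 1 Egr match at -38. Slc24a2 holds no match to any of these letters in this window, and Slc24a3 holds 3 Egr matches and 1 metal core. The promoter of Slc4a8, which is not shown, holds no match either. No matches overlapped in these windows. A promoter was found for 41 of the 47 tested genes, and 8 of them (19.5%) hold an Egr match, against 5.33% of the 27025 genes and 4.7% of the 32851 promoters in the RefSeq table. The 8 genes were Slc24a3 and Slc31a2 among the 9 higher genes, Slc9a3, Slc9a3r2 and Slc30a9 among the 9 lower genes, and Slc30a7, Slc41a1 and Slc4a2 among the 23 genes not called. A metal core of either form was found in 21 of the 41 (51.2%), against 23.8% of all genes in the table: 5 of the 9 higher, 6 of the 9 lower and 10 of the 23 not called. These gene counts take every annotated start of a gene. Slc24a2 is among the 5 higher genes through a metal core at -225 of its other start, which is not shown. Single promoters held TGCACNC in 10.4% and TGCGCNC in 12.5% of cases. The tables also hold genes that were not tested here, and their promoters were not matched on base composition, so these shares describe letters and no binding.

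The cation-chloride cotransporters (Slc12) had 6 tested genes, of which 1 rose and 2 fell, against 22% and 17.6% of all genes. Slc12a2, the cotransporter that brings sodium, potassium and chloride into the cell, was the brightest carrier of all on these arrays. Its control arrays read 13.29, 13.02 and 13.18 (13.16 ± 0.137), and its mutant arrays read 12.52, 11.99 and 12.04 (12.18 ± 0.292). The mutants were all below the controls, with mutant replicate 1 the nearest to them, and the gene fell by 0.98 (SE 0.151, adjusted p = 0.00312). A second tested probe of the gene gave the same picture, at 11.82, 11.69 and 11.76 in controls and 11.05, 10.52 and 10.50 in mutants, a fall of 1.07 (SE 0.149, adjusted p = 0.00202). Without mutant replicate 1, the brightest probe fell by 1.15 (adjusted p = 6.47e-05).

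Slc12a7, a potassium-chloride cotransporter that lets both ions out, rose by 0.35 (SE 0.0602, adjusted p = 0.00486) from a dim level, with 8.48, 8.42 and 8.51 in controls and 8.80, 8.91 and 8.76 in mutants. Slc12a9, an orphan relative known as a partner of other cotransporters, fell by 0.36 (SE 0.0875, adjusted p = 0.0202), from 9.61, 9.53 and 9.60 to 9.06, 9.22 and 9.39. The Slc12a9 call did not hold without mutant replicate 2 (adjusted p = 0.0607), control replicate 1 (0.0743) or control replicate 3 (0.0694), and its dimmer probe was not called (-0.11, adjusted p = 0.186). The other 3 were not called: Slc12a3, the thiazide-sensitive cotransporter of the kidney, differed by 0.10 (adjusted p = 0.221), Slc12a4 by -0.01 (adjusted p = 0.948) and Slc12a8 by 0.05 (adjusted p = 0.489).

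Of 9 tested kinases and adaptors that act on these cotransporters, 2 rose, 4 fell and 3 were not called. Over all tested genes, 39.6% were called. This list and the related lists below were chosen with earlier results of these data known, so their counts are descriptive. Sgk1, a kinase that raises sodium transport, fell from 13.00 to 11.27 (difference -1.73, SE 0.127, adjusted p = 1.31e-04). Klhl3, the adaptor that marks WNK kinases for breakdown, fell from 10.57 to 9.54 (difference -1.03, SE 0.0637, adjusted p = 6.58e-05). Stk39, the kinase that phosphorylates and activates Slc12a2, fell by 0.65 (SE 0.0722, adjusted p = 7.66e-04), while its close relative Oxsr1 rose by 0.40 (SE 0.0554, adjusted p = 0.00208). Wnk1, which acts above both, rose from 11.70 to 12.27 on its brightest probe (difference 0.57, SE 0.157, adjusted p = 0.0298). The Wnk1 call did not hold without control replicate 1 (adjusted p = 0.0707), control replicate 2 (0.102) or control replicate 3 (0.0753) and when its 4 tested probes were averaged (difference 0.19, adjusted p = 0.104). Wnk4 was called lower at -0.19 (adjusted p = 0.0325), a call that held in 4 of 10 alternatives. It was lost with the replicate number as a block (adjusted p = 0.0748) and without mutant replicate 1 (0.0518) or 3 (0.0681). Leaving out control replicates 1, 2 and 3 in turn lost it too (0.109, 0.064 and 0.0943).

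The sodium-potassium pump, whose sodium gradient drives most of these carriers, had 8 tested subunits and regulators. Of these, 5 fell and none rose, with a median of -0.40, where 17.6% of all genes fell. No alpha subunit of the pump was among the tested genes, and the only subunit that fell was Atp1b3. The beta subunits Atp1b1 (adjusted p = 0.2) and Atp1b2 (0.694) and the regulator Fxyd5 (0.912) were not called. The other genes that fell were Fxyd regulators. Among them, Fxyd2 had a weak call (-0.23, adjusted p = 0.0486) that was lost in 8 of 10 alternatives. These included the replicate number as a block (adjusted p = 0.0554) and each array left out except mutant replicate 3 (0.0504 to 0.127). Fxyd3, a small regulator of the pump, fell from 11.16 to 9.57 (difference -1.59, SE 0.272, adjusted p = 0.00481). Fxyd6, of the same group of regulators, fell from 15.07 to 14.22 (difference -0.86, adjusted p = 6.13e-04), the beta subunit Atp1b3 from 14.15 to 13.43 (difference -0.72, adjusted p = 6.97e-04) and Fxyd1 from 9.31 to 8.74 (difference -0.57, adjusted p = 0.00621). Of the calcium pumps, none of 6 tested genes was called on its brightest probe by limma. Atp2a2, the pump that fills the endoplasmic reticulum, differed by 0.13 (adjusted p = 0.244) on that probe, but another tested probe rose by 0.71 (SE 0.113, adjusted p = 0.00349).

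Of the 6 tested bicarbonate carriers and partners of Slc4, 1 rose and 1 fell, against 22% and 17.6% of all genes. Slc4a8, a sodium-driven exchanger that brings in bicarbonate in trade for chloride, read 8.54, 8.64 and 8.59 in controls (8.59 ± 0.0507) and 9.10, 9.36 and 9.38 in mutants (9.28 ± 0.152). Its groups were separated, and it rose by 0.69 (SE 0.0845, adjusted p = 0.0012), with a second probe up by 0.20 (SE 0.0491, adjusted p = 0.0188). Slc4a4, the cotransporter of sodium and bicarbonate, read 10.03, 10.09 and 9.69 in controls and 9.72, 9.38 and 9.37 in mutants. It fell by 0.45 (SE 0.139, adjusted p = 0.0442), but control replicate 3 lay below mutant replicate 1. Its call did not hold without mutant replicate 2 (adjusted p = 0.128), mutant replicate 3 (0.109), control replicate 1 (0.138) or control replicate 2 (0.14), and with no filter (0.112).

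Slc4a2, the broadly expressed chloride-bicarbonate exchanger and the brightest of the family, read 11.18, 11.29 and 11.31 in controls and 11.36, 11.36 and 11.64 in mutants. All 3 mutants were above the controls, yet the difference of 0.20 was not called (SE 0.0905, adjusted p = 0.14). Slc4a1, the band 3 protein of red blood cells, differed by 0.02 (adjusted p = 0.878), Slc4a3 by 0.02 (adjusted p = 0.895) and the partner Slc4a1ap by 0.01 (adjusted p = 0.918). Of the markers of red cells, the globin Hba-a1 was at 14.13 in controls and 13.60 in mutants and was not called (adjusted p = 0.149).

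Carbonic anhydrases make the bicarbonate that Slc4 proteins carry, and of 7 tested members 2 rose and 3 fell. Over all genes, 22% rose and 17.6% fell. Car14, a membrane enzyme facing outward, fell from 10.08 to 8.44 (difference -1.64, SE 0.073, adjusted p = 1.62e-05), and Car4, also outside the cell, fell from 8.97 to 8.34 (difference -0.63, adjusted p = 8.24e-04), a mutant mean just under the lowest mean the filter kept. Car13, a cytosolic enzyme, rose from 9.30 to 10.41 (difference 1.11, SE 0.0717, adjusted p = 7.79e-05). Car12 was also called higher, from 8.22 to 8.58 (adjusted p = 0.00328). The control mean of Car12, like the mutant mean of Car4, is under the lowest mean the filter kept. Each was thus tested through the group where it was higher, and neither call supports the count.

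The anion and phosphate carriers were dim. Slc26a6, the only tested member of the Slc26 anion exchangers, read 8.37, 8.39 and 8.43 in controls and 8.40, 8.40 and 8.39 in mutants, a difference of 0.00 (adjusted p = 0.966). Slc20a1, a phosphate importer that also serves as a retrovirus receptor, rose by 0.30 (SE 0.0567, adjusted p = 0.00714), from 8.38, 8.32 and 8.39 in controls to 8.75, 8.62 and 8.62 in mutants, with no overlap. Among 7 tested genes of phosphate and pyrophosphate handling outside the carriers, 2 rose and 1 fell, against 22% and 17.6% of all genes. Ank, which supports the export of pyrophosphate, fell from 12.16 to 11.12 (difference -1.04, SE 0.0967, adjusted p = 3.44e-04). Alpl, the phosphatase that cleaves pyrophosphate, rose by 0.45 (adjusted p = 0.0233), a call lost without mutant replicate 2 (adjusted p = 0.0753), control replicate 1 (0.065), control replicate 2 (0.0795) or control replicate 3 (0.0713). The phosphate exporter Xpr1 was called at 0.19 (adjusted p = 0.0365), and lost its call with the replicate number as a block (adjusted p = 0.054) and without mutant replicate 3 (0.0917) or control replicates 1, 2 and 3 in turn (0.122, 0.107 and 0.0634).

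None of the 3 tested iron and divalent metal carriers was called by limma on its brightest probe. Slc11a1, the metal pump of macrophage phagosomes, read 11.17, 11.08 and 11.02 in controls and 10.89, 11.08 and 11.18 in mutants, and its difference was -0.04 (SE 0.0857, adjusted p = 0.762). Its dimmest tested probe was called at 0.15 (adjusted p = 0.0497). Slc11a2, which imports iron, differed by -0.03 (adjusted p = 0.764), while its other probe was called at 0.17 (SE 0.0518, adjusted p = 0.0405). Slc40a1, ferroportin, read 10.37, 10.24 and 9.88 in controls and 10.70, 10.65 and 10.20 in mutants. The groups overlapped and the difference of 0.35 was not called (SE 0.174, adjusted p = 0.162). The titles do not say whether equal replicate numbers mark pairs. For each replicate number, however, the mutant was the higher, and with that number as a block the adjusted p was 0.00981. The call was also made without mutant replicate 3 (difference 0.51, adjusted p = 0.0431). Of 6 tested macrophage markers, none rose and 2 fell, and the mean level of the list was 9.78 to 9.85 on control arrays and 9.70 to 9.78 on mutant arrays.

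Of 16 tested genes of iron handling outside the carriers, 7 rose and none fell on its brightest probe, against 22% higher and 17.6% lower over all genes. Without control replicate 1, 4 rose: the calls of Ireb2 (adjusted p = 0.101), Pcbp1 (0.073) and Pcbp2 (0.103) were lost. Ireb2 also lost its call without mutant replicate 2 (0.0776), control replicate 2 (0.14) or control replicate 3 (0.0753). Pcbp1 lost it without control replicate 3 (0.0648), and Pcbp2 without mutant replicate 2 (0.0976) or control replicate 2 (0.089). With a trend and robust prior 5 rose and 1 fell, and with probes averaged 7 rose and 2 fell. Hfe, which senses iron-loaded transferrin, rose from 9.87 to 11.89 (difference 2.02, SE 0.0728, adjusted p = 8.31e-06). Cp, the ferroxidase ceruloplasmin that works with ferroportin, rose from 11.54 to 12.82 (difference 1.28, SE 0.186, adjusted p = 0.00239), and Trf, the iron carrier transferrin, from 10.81 to 11.98 (difference 1.17, SE 0.0798, adjusted p = 9.66e-05). Cybrd1, a reductase that readies iron for uptake, rose by 0.59 (adjusted p = 7.45e-04) from 8.20. That control mean is under 8.34, the lowest mean the filter kept, so the gene was tested through its mutant arrays and its call supports nothing about the list. Tfrc, the transferrin receptor, went from 9.76 to 9.18 on its brightest probe, a difference that was not called (-0.58, adjusted p = 0.0538; 0.0414 over the 12000 brightest probes and, at -0.78, 0.00303 without mutant replicate 1), and fell on a second probe (-0.51, adjusted p = 0.0215). The ferritin subunit Fth1 was not called on its brightest probe (-0.11, adjusted p = 0.242) and fell on another (-0.35, adjusted p = 0.00943).

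Of the copper carriers, Slc31a1, the high-affinity importer, read 10.35, 10.31 and 10.36 in controls and 10.61, 10.42 and 10.42 in mutants. These groups did not overlap, but the difference of 0.14 was not called (SE 0.0677, adjusted p = 0.148). Slc31a2, its relative on inner membranes, rose by 0.23 (SE 0.0624, adjusted p = 0.0287), from 9.18, 9.21 and 9.28 to 9.55, 9.42 and 9.39. The Slc31a2 call was lost with the replicate number as a block (adjusted p = 0.0662) and without mutant replicate 2 (0.0618), control replicate 1 (0.103) or control replicate 2 (0.0873). Of 9 tested genes of copper handling outside the carriers, 2 rose and 3 fell, against 22% and 17.6% of all genes. The metallothionein Mt1, which binds copper and zinc, fell from 14.94 to 13.67 (difference -1.27, SE 0.339, adjusted p = 0.0269), and Mt2 from 9.12 to 8.42 (difference -0.71, SE 0.173, adjusted p = 0.0198). Cox17, a copper chaperone of mitochondria, fell from 11.97 to 10.90 (difference -1.07, SE 0.308, adjusted p = 0.035), and App, the amyloid precursor protein, which binds copper, rose by 0.55 (SE 0.118, adjusted p = 0.0125). Without mutant replicate 2 the calls of Mt1, Mt2 and Cox17 were lost (adjusted p = 0.064, 0.0673 and 0.0601), and without control replicate 1, 2 or 3 those of Mt1 (0.0704, 0.0841 and 0.0871) and Cox17 (0.106, 0.0878 and 0.0978) were lost too. Without control replicate 3 the call of App was lost (adjusted p = 0.0513).

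The zinc carriers were the largest group, with 17 tested genes. Of the 10 tested ZIP importers (Slc39), 3 rose and 3 fell, against 22% and 17.6% of all genes. Among those that fell, Slc39a4 and Slc39a8 were tested only through their control arrays, so their calls are no support for this count. Slc39a6, a ZIP of the plasma membrane, read 10.32, 10.43 and 10.48 in controls (10.41 ± 0.0806) and 11.58, 11.12 and 11.07 in mutants (11.26 ± 0.279). Mutant replicate 1 was the highest, all mutants were above the controls, and the gene rose by 0.85 (SE 0.138, adjusted p = 0.00387). Without mutant replicate 1 the rise was 0.69 (adjusted p = 2.03e-04). Slc39a10, its closest relative, did not rise: its difference was -0.19 (adjusted p = 0.157), and without mutant replicate 1 it was -0.29 and called (adjusted p = 0.00445).

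Slc39a7, which releases zinc from the endoplasmic reticulum, was the brightest ZIP. It read 11.38, 11.29 and 11.23 in controls and 11.77, 11.51 and 11.48 in mutants, and rose by 0.29 (SE 0.0892, adjusted p = 0.0446). Its other probes were not called (0.21, adjusted p = 0.0723, and 0.06, adjusted p = 0.436). Slc39a13, a ZIP of the Golgi and vesicles, read 10.26, 10.28 and 10.18 in controls and 10.44, 10.42 and 10.71 in mutants, and rose by 0.28 (SE 0.0885, adjusted p = 0.0467), while its other probe differed by 0.01 (adjusted p = 0.955). Both calls were weak. That of Slc39a7 was lost without mutant replicate 2 (adjusted p = 0.0692) or control replicates 1, 2 and 3 in turn (0.0739, 0.121 and 0.135). That of Slc39a13 was lost with the replicate number as a block (adjusted p = 0.0796), without mutant replicate 2 (0.0514) or 3 (0.0615), without control replicates 1, 2 and 3 in turn (0.114, 0.096 and 0.138), and with its probes averaged (difference 0.14, adjusted p = 0.166).

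The ZIP genes that fell were all dim. Slc39a4, the zinc importer of the gut, went from 8.53, 8.63 and 8.54 in controls to 8.20, 8.25 and 8.27 in mutants, a fall of 0.32 (SE 0.0528, adjusted p = 0.00388). Slc39a8, which carries zinc and manganese, fell by 0.24 (SE 0.0681, adjusted p = 0.0337), from 8.59, 8.57 and 8.42 to 8.36, 8.26 and 8.24. The mutant means of Slc39a4 (8.24) and Slc39a8 (8.29) are under 8.34, the lowest mean the filter kept, so both were tested through their control arrays, where they were higher. Slc39a3 fell by 0.23 (SE 0.071, adjusted p = 0.0442), from 8.84, 8.99 and 9.04 to 8.70, 8.79 and 8.68. The Slc39a8 call did not hold without mutant replicate 2 (adjusted p = 0.0963) or 3 (0.0865) or control replicate 1 (0.117) or 2 (0.111). The Slc39a3 call was lost with the replicate number as a block (adjusted p = 0.0585), over the 12000 brightest probes (0.0563), without each mutant array in turn (0.0622, 0.0608 and 0.106) and without control replicate 2 or 3 (both 0.13). Of the rest, Slc39a1 differed by -0.11 (adjusted p = 0.484, and -0.24 and 0.0301 without control replicate 2), Slc39a5 by -0.09 (adjusted p = 0.209) and Slc39a11 by 0.05 (adjusted p = 0.585). Slc39a5, with a mutant mean of 8.338 against a lowest kept mean of 8.341, was also tested through its control arrays.

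Of the 7 tested zinc exporters (Slc30), 1 rose and 1 fell, against 22% and 17.6% of all genes. Slc30a5, which loads zinc into the early secretory pathway, read 10.52, 10.40 and 10.38 in controls and 11.19, 10.73 and 10.68 in mutants, a rise of 0.43 at the edge of the threshold (SE 0.138, adjusted p = 0.0497). Its other probe gave a like difference that was not called (0.42, adjusted p = 0.0608). Its call did not hold without mutant replicate 2 (adjusted p = 0.0654), control replicates 1, 2 or 3 (0.094, 0.134 and 0.139) and with the probes averaged (0.0525). The partners of Slc30a5 in that pathway, Slc30a6 and Slc30a7, differed by 0.19 (adjusted p = 0.155) and 0.18 (adjusted p = 0.0989), and the other Slc30a7 probe was called at 0.27 (SE 0.0717, adjusted p = 0.0252).

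Slc30a9 fell by 0.21 (SE 0.0591, adjusted p = 0.0319), from 8.65, 8.63 and 8.75 to 8.40, 8.48 and 8.52. The Slc30a9 call did not hold without mutant replicate 1 (adjusted p = 0.0504) or 2 (0.0781) and without control replicates 1, 2 and 3 in turn (0.0763, 0.0633 and 0.0969). Slc30a1, the zinc exporter of the plasma membrane and a known target of the zinc sensor Mtf1, differed by 0.02 (adjusted p = 0.798). Slc30a2 differed by -0.00 (adjusted p = 0.961) and Slc30a4 by -0.04 (adjusted p = 0.676).

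Outside the carriers, 3 genes of zinc handling were tested. Mt3, a metallothionein of the nervous system, fell from 10.75 to 8.37 (difference -2.37, SE 0.162, adjusted p = 9.84e-05). Mtf1 differed by 0.12 on its brightest probe (adjusted p = 0.598; at 0.31, 0.0115 without mutant replicate 1), and a dim probe was called at 0.17 (adjusted p = 0.04). Trpm7, a channel that passes zinc and magnesium, differed by 0.04 and was not called. With Mt1 and Mt2 above, all 3 tested metallothioneins fell.

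All 3 magnesium carriers of Slc41 were tested, and 1 fell, where 17.6% of all genes fell. Slc41a2 fell by 0.25 (SE 0.0652, adjusted p = 0.0258), from 8.85, 8.88 and 8.97 to 8.72, 8.68 and 8.55. The Slc41a2 call was lost with the replicate number as a block (adjusted p = 0.0638), without mutant replicate 2 (0.0618) or 3 (0.0611) and without control replicates 1, 2 and 3 in turn (0.0562, 0.0695 and 0.0857). Slc41a3, the brightest, read 9.09, 9.22 and 8.88 in controls and 8.98, 9.09 and 8.98 in mutants, and its difference was -0.05 (SE 0.0942, adjusted p = 0.741). Slc41a1 differed by -0.13 (adjusted p = 0.119) with no overlap of the groups. Its mutant mean of 8.295 is under 8.341, the lowest mean the filter kept, so it was tested through its control arrays, where it was higher.

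Of 10 further tested genes of magnesium handling, 3 rose and 2 fell, against 22% and 17.6% of all genes. Mmgt2, a magnesium transporter of inner membranes, fell from 11.24 to 10.16 (difference -1.08, SE 0.087, adjusted p = 1.89e-04), and Nipa1 from 10.95 to 10.26 (difference -0.69, adjusted p = 0.00144). Nipa2, its relative, rose from 9.61 to 10.27 (difference 0.66, SE 0.11, adjusted p = 0.00413). Trpm6, a magnesium channel, was called at 0.33 (adjusted p = 0.02), and lost its call without control replicate 1 (adjusted p = 0.0546) or 2 (0.0713).

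Over all 9 lists of related pumps, kinases, enzymes and metal proteins, 18 of 75 tested genes rose (24%) and 19 fell (25.3%), against 22% and 17.6% of all genes, with a median of -0.02. The higher genes include Car12 and Cybrd1 and the lower genes Car4, each tested only through the group where it was higher. Their calls are no support for these counts. The lists were chosen with earlier results of these data known, so the shares describe them and are no test.

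**Figure D4:**
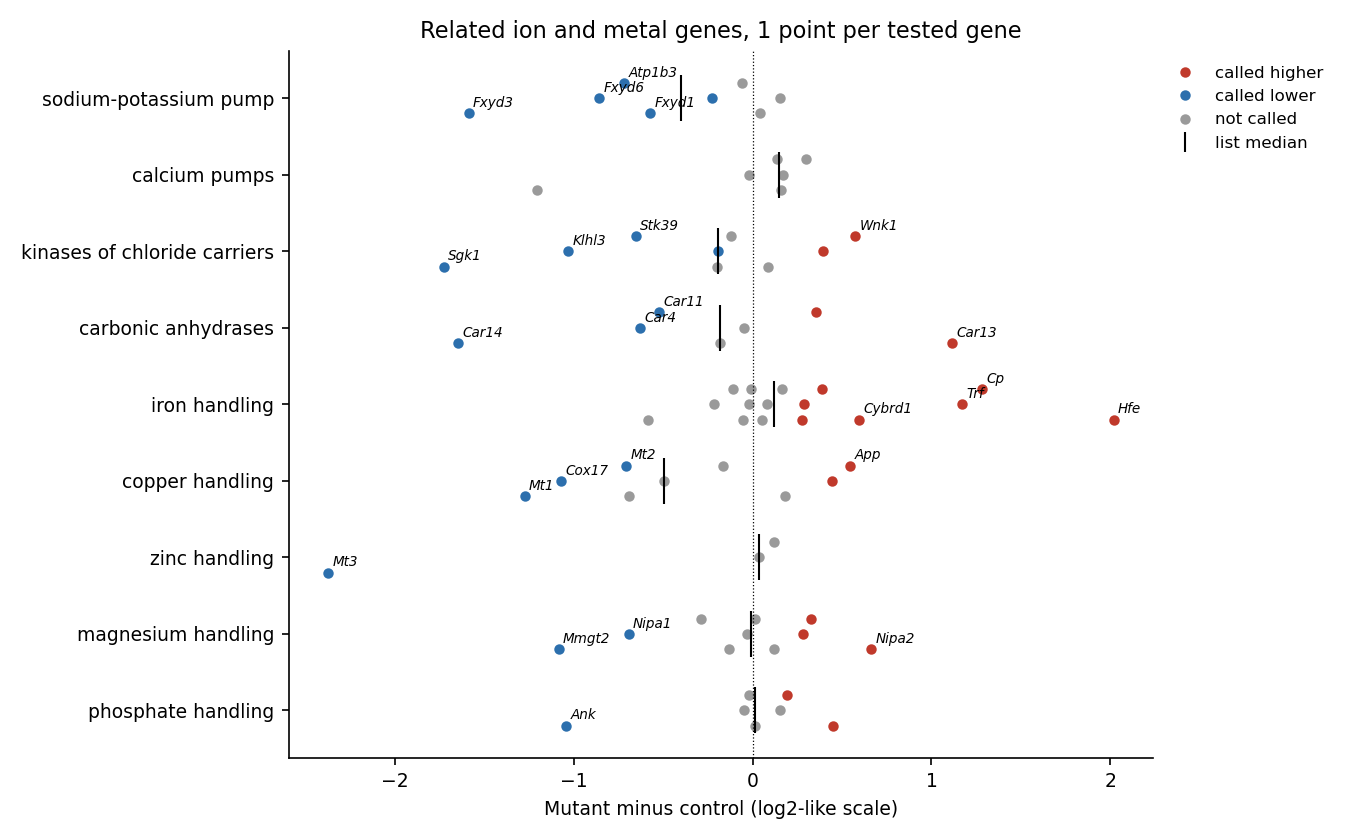
Difference (x axis, mutant minus control, log2-like units) of each tested gene in the 9 related lists (y axis), with a bar at the median of each list and colour for the call. The copper list has the lowest median (-0.50), with 2 higher and 3 lower genes of 9. The sodium-potassium pump list has the lowest among the lists with no higher call (median -0.40, 5 of 8 lower). The iron list holds 7 higher and no lower genes of 16.

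Markers of the cells in the nerve moved beside these carriers. All 4 myelinating markers fell, and 2 of 3 tested markers of immature Schwann cells rose (list mean 9.43 to 9.48 in controls and 10.60 to 10.72 in mutants). Of 5 tested mast cell markers, 4 rose (9.13 to 9.24 in controls and 9.67 to 10.08 in mutants), and 2 of 5 fibroblast markers rose (13.61 to 13.73 and 14.07 to 14.29). The skeletal muscle list, with 1 of 7 called lower, varied widely, from 11.75 to 13.05 in controls and from 9.67 to 11.77 in mutants. The part of these cells in the carrier results was not tested.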

How the data were processed

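Total RNA of 6 sciatic nerve samples was hybridised to 1 array each. The authors deposited values on a log2-like scale, 1 column per array, all with the same distribution (median 8.24). The design text names limma and RMA normalization, and the submitters' processing notes name lumi 1.8.3, so whether the scale is plain log2 or a variance-stabilised one is not settled. On the latter a difference among dim probes understates the log2 fold change. How background was corrected is not stated in those sources. The design text speaks of cultured cells, while every sample label names sciatic nerve, which is followed.

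No further normalization was applied. The 18420 brightest probes by mean over the 6 arrays were kept, the number the design text gives, and their lowest mean was 8.34. limma 3.58.1 in R 4.3.3 compared 3 mutant with 3 control arrays (lmFit and eBayes, two-sided, Benjamini-Hochberg over all kept probes). The number of arrays limits the precision. The procedure was tested on simulated data. Symbols come from the platform annotation (34885 probes with 1 symbol, 18 with several, 10378 with none); all 80 gene identifiers matched RefSeq, and 64 of the 80 had a promoter there.

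Alternatives were no filter, the 12000 brightest probes, eBayes with a trend and robust prior, the replicate number as a block, each array left out, and the mean of a gene's tested probes. The titles do not say whether equal replicate numbers mark paired samples, and the block alternative assumed that they do. Same-numbered samples deviated together weakly from their group means (correlations 0.165, 0.155 and 0.224, each the highest of its array). With so few arrays per group, these correlations cannot decide whether samples were paired. The main comparison used no pairing, so its calls do not allow for pairs if there were any. Every member gene could be named. Values per array were given for genes called with a difference of at least 0.5 and for the brightest of each family, and for related genes up to 4 called members per list. Other members' array values and further called related genes were added. No measured value entered the symbol rule for the members, but members and lists were chosen with earlier results of these data known.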

Additional observations from a re-analysis of the deposited data

Results flagged for a closer look

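A probe of Slc4a8 that the brightness filter left out was higher in the mutants by 0.148 (mutants 8.32 ± 0.0464, controls 8.18 ± 0.0309, SD, n = 3; limma adjusted p with all probes tested = 0.0313). Both tested probes of the gene were called higher too. Among the untested members, Slc20a2 differed the other way when all probes were tested, by -0.147 (8.21 against 8.36; limma adjusted p = 0.00587). Groups of 3 arrays were not searched for outlying samples.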

How the results depend on the processing

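No called carrier changed direction in any alternative run. With the 12000 brightest probes, 7 of the 11 lower genes were still tested and 6 were called, Slc39a3 being lost (adjusted p = 0.0563), and 9 probes were higher and 7 lower in place of 14 and 12. Leaving out each array in turn gave 6 to 10 higher genes, 5 to 10 lower genes, 6 to 13 higher probes and 6 to 11 lower probes. Among the related genes it gave 10 to 19 higher and 14 to 21 lower. The calls over all genes were not counted for these runs, so the ranges have no share to be read against. With the replicate block, 9 genes rose and 9 fell, 10 probes rose and 10 fell, and 16 related genes rose and 16 fell. Beside the calls given with the results, the block lost those of Car11 and Pcbp2 (adjusted p = 0.0597 and 0.0619), and it changed no other call of a carrier or related gene. With no filter, which adjusts over 45281 probes, the calls of Slc30a5, Slc39a13, Slc39a3, Slc39a7 and Slc4a4 were lost (adjusted p = 0.123, 0.0936, 0.0689, 0.0905 and 0.112). So were those of the related genes Alpl, Car11, Cox17, Fxyd2, Ireb2, Mt1, Mt2, Pcbp2 and Wnk1. With a trend and robust prior those of Slc39a13 and Slc39a7 were lost (0.0583 and 0.0701) and Slc41a1 was called (0.0376). Averaging probes called Slc30a7 (difference 0.23, adjusted p = 0.0354). Brightness limits what can be said of the 33 untested genes.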
